A study of Mus musculus with 6 samples.

Results

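Pdgfra, Pdgfrb, Cd34, Ly6a, Dpp4, Pi16, Tcf7l2, Acta2, Rgs5 and Cspg4, a list of 10 genes that mark the interstitial fibroblasts and the vessel wall cells of skeletal muscle, were examined in EDL (extensor digitorum longus), a mostly fast muscle of the lower leg. They were found by gene symbol, and all 10 were among the 24411 genes of the count table. RNA was taken from 3 mAktDKO mice (Mlc1f-Cre:Akt1/2-floxed) and 3 control floxed mice (Akt1/2-floxed, without Cre), all labelled C57BL/6J and aged 50 weeks. Both groups carried the floxed Akt1 and Akt2 alleles. They differed in Cre, driven by the promoter of Mlc1f, a myosin light chain gene of skeletal muscle. Whether Cre was active in the interstitial or vascular cells of the muscle was not tested here. The control mice carry the numbers 2 to 4 in the count table.

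Fibro-adipogenic progenitors are mesenchymal cells that lie between the myofibers, produce matrix, support regeneration and can turn into fibroblasts or adipocytes. They are known by PDGF receptor alpha, by the surface proteins CD34 and Sca-1 (encoded by Ly6a) and, in a less committed state close to larger vessels, by Dpp4 and Pi16. Mural cells wrap the vessels: pericytes line capillaries and carry PDGF receptor beta, NG2 (encoded by Cspg4) and Rgs5, and smooth muscle cells of arterioles contract with alpha-smooth muscle actin (Acta2). In RNA of a whole muscle, a larger number of such cells and more RNA of the gene in each cell cannot be told apart. Levels here are relative to the rest of the RNA sequenced, and are not amounts per cell or per muscle. A level can therefore also be higher where other cells, such as myofibers, give less RNA. The paper reports that fast muscles weighed less in mAktDKO than in control mice. Whether that lower weight affected the levels given here was not tested.

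The libraries held 13738795 to 15445523 estimated counts each, and the 10 genes had between 85 and 5198 counts in a mouse, so all 10 passed the filter on low counts. Levels are given as CPM, counts scaled to a common library size after TMM. Fast myofiber genes (9 listed, Myh4 among them) summed to between 127320 and 156260 CPM and slow myofiber genes (6 listed, Myh7 among them) to between 569 and 1257 CPM, the order known for EDL. Of the targeted genes, Akt2 was 51.0 ± 1.82 CPM (SD, n = 3) across the mAktDKO mice, against 149 ± 20.3 CPM (SD, n = 3) across control mice. Akt1 was 55.7 ± 3.89 CPM (SD, n = 3), against 66.2 ± 0.56 CPM (SD, n = 3) in the controls, and counts per gene do not show how much of a floxed exon was lost. One library stood apart for the genes described here: control mouse 2 was the lowest of the 3 control mice for 10 of the 10 genes and the lowest of all 6 mice for 9 of them. Control mouse 2 also differed most when whole libraries were compared by chi-square per degree of freedom. It was 27.3 and 26.4 from control mice 3 and 4, which were 10.6 from each other. From the mAktDKO mice it was 50.6 to 69.9, against 17.1 to 28.6 for control mice 3 and 4. The values of the 10 genes, the ratios between them and the medians of most cell type lists are therefore given with and without control mouse 2.

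All 10 genes had a positive log2 fold change in the mAktDKO mice (background among 12892 tested genes, 52.5%), and the median was 0.19 against 0.017 over all tested genes. None was called at an adjusted p under 0.01 with edgeR's quasi-likelihood test (background, 0.0233% in either direction). Over all 12892 tested genes, that test called 0 as higher and 3 as lower. Of the 10 genes, 5 had an unadjusted p under 0.05 with edgeR (background for higher genes, 11.4%). The Wald test of DESeq2, the tool that the study used with this limit on adjusted p, called 1, Dpp4 (background, 0.936% for higher genes and 3.55% in either direction). At an adjusted p under 0.05, edgeR also gave Dpp4 alone (background, 0.264% for higher genes and 1.18% in either direction). For 5 genes, Pdgfra, Pdgfrb, Dpp4, Tcf7l2 and Rgs5, every mAktDKO mouse lay above every control mouse (background, 14.6% for higher genes and 31.1% in either direction). Without control mouse 2, the log2 fold change of each of the 10 genes was smaller, 7 stayed above 0 (background, 52.8%) and the median was 0.13 against 0.017 over all genes. In that fit edgeR called none at an adjusted p under 0.01 (background, 0.0609%) and DESeq2 none (background for higher genes, 0.835%), while 3 had an unadjusted p under 0.05 with edgeR (background for higher genes, 9.05%) and Dpp4 was past an adjusted p under 0.05 (background for higher genes, 0.312%). The groups of 5 genes did not overlap in that fit (background for higher genes, 19.1%). The count with an unadjusted p under 0.05 was 2 without mAktDKO mouse 1 (background for higher genes, 8.53%) and 2 without mAktDKO mouse 2 (background for higher genes, 6.28%).

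**Figure D1:**
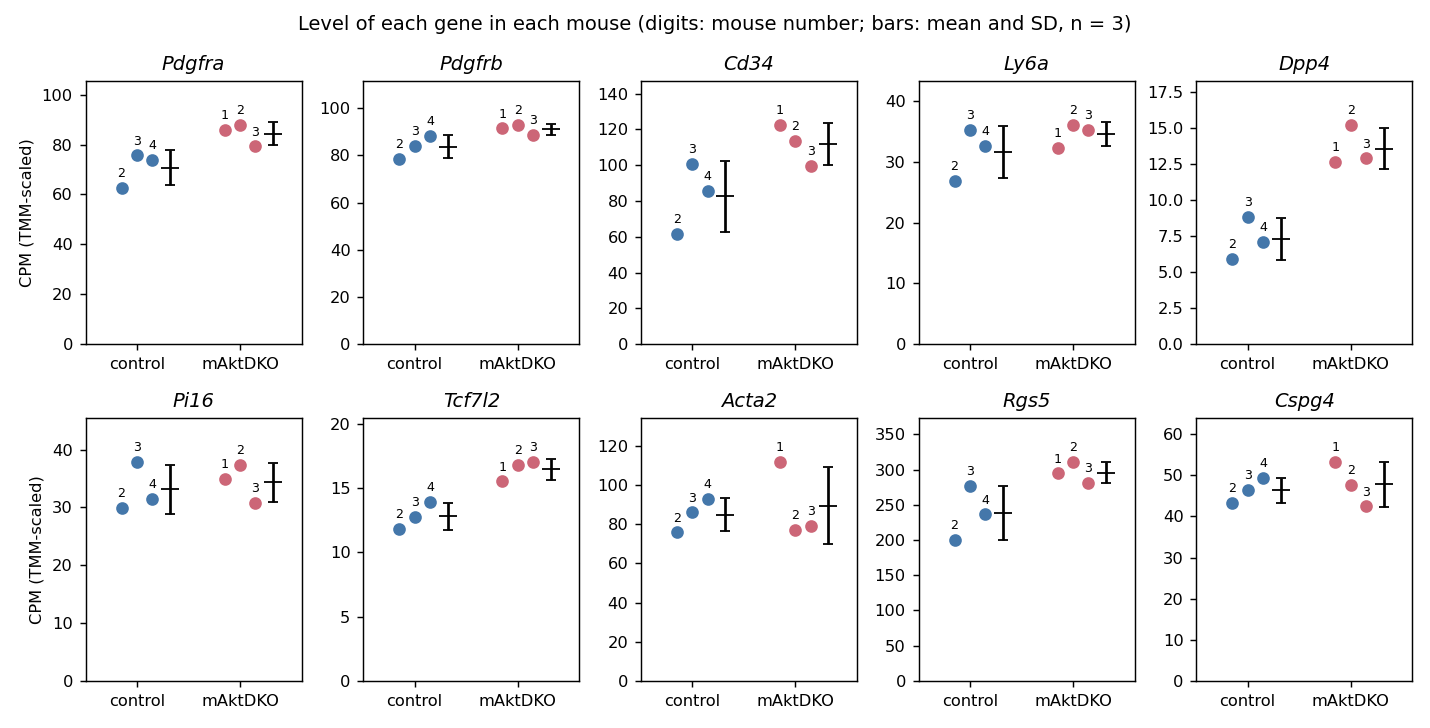
TMM-scaled CPM (vertical axes, from 0) of each gene in each of the 3 control mice (blue, numbered 2 to 4) and 3 mAktDKO mice (red, numbered 1 to 3), with the mean and SD of each group as black bars. Control mouse 2 is the lowest control mouse in every panel, and the groups are apart for Pdgfra, Pdgfrb, Dpp4, Tcf7l2 and Rgs5.

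Dpp4 encodes dipeptidyl peptidase 4 (CD26), a membrane-bound protease that trims chemokines and incretins and marks the progenitor-like fibroblasts. The gene lies on chromosome 2 of mm10 from 62330073 to 62412315 (minus strand, 26 exons in its longest coding transcript), with this and all other gene spans taken from GENCODE M21. It was 12.6, 15.2 and 12.9 CPM in mAktDKO mice 1 to 3 and 5.94, 8.83 and 7.11 CPM in control mice 2 to 4. All mAktDKO mice were thus above all control mice, and the gap between the groups, relative to the level, was wider than for any other of the 10 genes. The means were 13.6 ± 1.43 CPM (SD, n = 3) with Cre and 7.29 ± 1.45 CPM (SD, n = 3) without it, a 1.86-fold difference. The log2 fold change was 0.90 (standard error 0.16, 95% interval 0.54 to 1.26, edgeR quasi-likelihood test, adjusted p = 0.0474). Without control mouse 2 it was 0.77 (95% interval 0.44 to 1.10, edgeR adjusted p = 0.0474), and DESeq2 gave an adjusted p of 0.00104 with all 6 mice and 0.0106 without that mouse. The adjusted p from edgeR was above 0.05 when any one of mAktDKO mouse 1 (0.116), mAktDKO mouse 2 (0.22), mAktDKO mouse 3 (0.115) or control mouse 3 (0.055) was left out, with a log2 fold change between 0.81 and 1.06 in those fits.

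Pi16, a secreted peptidase inhibitor, marks the same progenitor-like fibroblasts as Dpp4 and lies on chromosome 17 from 29318796 to 29328903. It was 34.9, 37.4 and 30.7 CPM across mAktDKO mice 1 to 3, against 29.99, 37.9 and 31.5 CPM across control mice 2 to 4. The groups overlapped, with control mouse 3 the highest of the 6. Its log2 fold change was 0.052 (standard error 0.12, 95% interval -0.21 to 0.31, edgeR adjusted p = 0.809) and turned to -0.016 without control mouse 2. The ratio of Dpp4 to Pi16, chosen after the values of both genes were seen, does not depend on how libraries are scaled. Its log2 value was -1.34 ± 0.11 (SD, n = 3) across the mAktDKO mice, against -2.19 ± 0.12 (SD, n = 3) across control mice, a difference of 0.86, or 0.79 without control mouse 2. The mAktDKO mice were all above the control mice (two-sided exact permutation p = 0.1, below which 3 mice against 3 cannot go, and 0.3 adjusted over 6 ratios). The log2 ratio of Dpp4 to Pdgfra, chosen in the same way, differed by 0.65, or 0.60 without control mouse 2, with the same p values. The sum of Pi16 and Dpp4 relative to Pdgfra, a ratio in which Pi16 has the larger counts, differed by -0.0069 on the log2 scale, or -0.0030 without control mouse 2 (two-sided exact permutation p = 1).

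The start regions of Dpp4, Pi16 and Tcf7l2 are shown because Dpp4 and Tcf7l2 had the smallest p values of the 10 genes, while Pi16 shares a cell state with Dpp4 but had a log2 fold change near 0. Each is the RefSeq window (GRCm38.p6, the build of mm10) of 250 bases before to 50 bases after the start of the RefSeq gene, which need not be the end of the GENCODE span, read on the gene's own strand at chr2:62412182-62412481 (minus), chr17:29318632-29318931 (plus) and chr19:55741560-55741859 (plus). Capitals mark matches, on either strand, to 6 motifs. TATAAA is the core of the TATA box. GGGCGG is the GC box bound by Sp1. CATTCC is the motif known for TEAD factors. CTTTGA is the core of the motif known for TCF/LEF factors. TGTTTAC is a motif of forkhead factors. The CArG box is bound by serum response factor.
Dpp4: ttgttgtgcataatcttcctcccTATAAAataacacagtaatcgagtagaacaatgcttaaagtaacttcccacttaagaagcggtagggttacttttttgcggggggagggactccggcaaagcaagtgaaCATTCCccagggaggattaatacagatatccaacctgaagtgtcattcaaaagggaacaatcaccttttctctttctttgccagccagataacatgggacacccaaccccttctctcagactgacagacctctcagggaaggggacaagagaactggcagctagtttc
Pi16: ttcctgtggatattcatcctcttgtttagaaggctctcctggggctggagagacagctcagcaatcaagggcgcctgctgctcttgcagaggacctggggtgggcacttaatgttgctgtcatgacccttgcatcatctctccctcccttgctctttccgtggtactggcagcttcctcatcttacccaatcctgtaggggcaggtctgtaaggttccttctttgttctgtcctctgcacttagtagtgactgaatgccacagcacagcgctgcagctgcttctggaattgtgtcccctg
Tcf7l2: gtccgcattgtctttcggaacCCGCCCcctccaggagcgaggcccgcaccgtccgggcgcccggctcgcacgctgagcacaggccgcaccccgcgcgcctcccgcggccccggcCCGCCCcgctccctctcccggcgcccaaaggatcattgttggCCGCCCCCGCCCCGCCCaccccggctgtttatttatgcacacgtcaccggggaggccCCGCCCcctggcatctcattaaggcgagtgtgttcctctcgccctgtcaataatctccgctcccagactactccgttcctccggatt
The Dpp4 window held 1 TATAAA match, at -227 from the start site, and 1 CATTCC match, at -118. The Tcf7l2 window held 6 GGGCGG matches, of which 3 abut or overlap each other by a base, and the Pi16 window none of the 6 motifs. Their GC content was 45.3%, 70.0% and 53.3%, against a median of 52.7% over the 32851 windows of the table. Windows were read for 8 of the 10 genes (Ly6a and Pdgfrb were left out), and GGGCGG was in 2 of them (35.7% of all windows), CATTCC in 2 (14.7%), TATAAA in 1 (13.6%), CTTTGA in 1 (16.0%), TGTTTAC in 0 (3.65%) and the CArG box in 0 (1.63%). Near-matches were not counted, such as ccctatatgg in the Acta2 window for the CArG box. The matches describe the letters of these windows and are not evidence of binding.

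Tcf7l2 encodes a transcription factor of the Wnt pathway, which pairs with beta-catenin and is abundant in the connective tissue fibroblasts of muscle. It lies on chromosome 19 from 55741797 to 55933659. It was 15.5, 16.8 and 17.1 CPM across mAktDKO mice 1 to 3, against 11.8, 12.8 and 13.9 CPM across control mice 2 to 4, and the groups did not overlap. The log2 fold change was 0.36 (standard error 0.11, 95% interval 0.12 to 0.60, edgeR adjusted p = 0.0954) and 0.30 without control mouse 2 (95% interval 0.060 to 0.55, edgeR adjusted p = 0.173). Of 6 other TCF/LEF factors and Wnt targets, Tcf7 and Lef1 were under the filter on low counts. Of the 4 tested, 0 were called by edgeR or DESeq2, which gave no adjusted p for Nkd1. Tcf7l1, a related factor, had the smallest p of these, with 8.05 ± 0.74 CPM (SD, n = 3) against 5.43 ± 0.42 CPM (SD, n = 3) and a log2 fold change of 0.57 (edgeR adjusted p = 0.0691). Axin2, a target and inhibitor of the pathway, was at 0.26 (edgeR adjusted p = 0.194) and Ctnnb1, which encodes beta-catenin, at 0.028 (edgeR adjusted p = 0.847).

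Pdgfra encodes the receptor tyrosine kinase by which fibro-adipogenic progenitors are usually defined, and lies on chromosome 5 from 75151322 to 75198206. It was 86.0, 87.9 and 79.3 CPM across mAktDKO mice 1 to 3, against 62.8, 75.7 and 73.9 CPM across control mice 2 to 4. The groups did not overlap, although mAktDKO mouse 3 and control mouse 3 were close. The log2 fold change was 0.25 (standard error 0.094, 95% interval 0.042 to 0.47, edgeR adjusted p = 0.148), and without control mouse 2 it was 0.17 (95% interval -0.0079 to 0.35, edgeR adjusted p = 0.277). Pdgfrb, the receptor of pericytes and smooth muscle cells, lies on chromosome 18 from 61045127 to 61085067. It was 91.4, 92.9 and 88.6 CPM across mAktDKO mice 1 to 3, against 78.4, 84.1 and 88.2 CPM across control mice 2 to 4. These groups touched without overlapping, with mAktDKO mouse 3 just above control mouse 4. Its log2 fold change was 0.12 (standard error 0.077, 95% interval -0.052 to 0.30, edgeR adjusted p = 0.348), and 0.077 without control mouse 2 (95% interval -0.092 to 0.25, edgeR adjusted p = 0.605). The log2 ratio of Pdgfra to Pdgfrb was -0.11 ± 0.044 (SD, n = 3) across the mAktDKO mice, against -0.24 ± 0.085 (SD, n = 3) across control mice (exact permutation test, two-sided p = 0.2, Benjamini-Hochberg adjusted p = 0.533 over the 4 ratios planned and 0.4 over all 6). The difference was 0.13, or 0.094 without control mouse 2.

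The ligands of these receptors were Pdgfa, Pdgfb, Pdgfc and Pdgfd, of which 2 were higher and 2 lower and 0 were called by edgeR or DESeq2. Pdgfd, which signals mainly through the beta receptor, was 6.19 ± 0.20 CPM (SD, n = 3) across the mAktDKO mice, against 4.15 ± 1.01 CPM (SD, n = 3) across control mice, with no overlap and a log2 fold change of 0.58 (edgeR adjusted p = 0.126), or 0.39 without control mouse 2. Pdgfc, a ligand of the alpha receptor, was at 0.29 (edgeR adjusted p = 0.422) and Pdgfb, the endothelial ligand that recruits pericytes, at -0.018 (edgeR adjusted p = 0.945), or 0.042 without control mouse 2. Pdgfa, chosen after its values were seen, also turned, from -0.022 to 0.12 without control mouse 2. No ligand was below 0 in that fit.

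Cd34 encodes a sialomucin of progenitors that endothelial cells and satellite cells carry as well, and lies on chromosome 1 from 194938821 to 194961292. It was 123, 114 and 99.6 CPM across mAktDKO mice 1 to 3, against 61.5, 101 and 85.4 CPM across control mice 2 to 4. The groups overlapped by a small margin, since control mouse 3 was above mAktDKO mouse 3, and control mouse 2 lay far below the other five mice. The log2 fold change was 0.44 (standard error 0.16, 95% interval 0.069 to 0.81, edgeR adjusted p = 0.151), and it was 0.26 without control mouse 2 (95% interval 0.019 to 0.51, edgeR adjusted p = 0.231). Ly6a, the gene of Sca-1, a small surface protein also carried by endothelial cells, lies on chromosome 15 from 74994877 to 74998031. It was 32.3, 36.1 and 35.2 CPM across mAktDKO mice 1 to 3, against 26.9, 35.2 and 32.7 CPM across control mice 2 to 4, with the groups overlapping. Its log2 fold change was 0.13 (standard error 0.11, 95% interval -0.12 to 0.38, edgeR adjusted p = 0.493) and 0.024 without control mouse 2. Of the 919 windows of 37 bases, the read length, in its longest coding transcript, 17.6% are also found in transcripts of other genes, mainly Ly6c1 and Ly6i, so its counts rest in part on how RSEM divided shared reads. Of 5 Ly6 relatives, Ly6c1 and Ly6e passed the filter and were not called by edgeR or DESeq2, with log2 fold changes of 0.088 (edgeR adjusted p = 0.562) and 0.26 (edgeR adjusted p = 0.212), or 0.037 and 0.15 without control mouse 2.

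Rgs5, a regulator of G protein signaling and the most abundant of the 10 genes, marks pericytes and lies on chromosome 1 from 169655501 to 169695813. It was 295, 311 and 281 CPM across mAktDKO mice 1 to 3, against 200, 277 and 236 CPM across control mice 2 to 4. The groups did not overlap, with mAktDKO mouse 3 little above control mouse 3. The log2 fold change was 0.31 (standard error 0.12, 95% interval 0.045 to 0.58, edgeR adjusted p = 0.154), and 0.20 without control mouse 2 (95% interval -0.013 to 0.42, edgeR adjusted p = 0.283). Cspg4, the gene of the pericyte proteoglycan NG2, lies on chromosome 9 from 56865104 to 56899870. It was 53.3, 47.7 and 42.4 CPM across mAktDKO mice 1 to 3, against 43.3, 46.4 and 49.4 CPM across control mice 2 to 4. The mAktDKO mice spanned the whole range of the control mice, with mouse 1 the highest and mouse 3 the lowest of the 6. Its log2 fold change was 0.045 (standard error 0.10, 95% interval -0.19 to 0.28, edgeR adjusted p = 0.814), and -0.0031 without control mouse 2 (95% interval -0.24 to 0.23).

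Acta2 encodes the actin of vascular smooth muscle, which is also switched on in myofibroblasts, and lies on chromosome 19 from 34240336 to 34255585. It was 112, 76.9 and 79.2 CPM across mAktDKO mice 1 to 3, against 75.8, 85.9 and 92.8 CPM across control mice 2 to 4. The groups overlapped, and mAktDKO mouse 1 alone was above the control mice. The log2 fold change was 0.075 (standard error 0.15, 95% interval -0.26 to 0.41, edgeR adjusted p = 0.781), -0.12 without mAktDKO mouse 1 and -0.0013 without control mouse 2. Since myofibers hold far more of the related actin Acta1, with 19923 ± 620 CPM (SD, n = 3) across the mAktDKO mice, against 22559 ± 540 CPM (SD, n = 3) across control mice, their longest coding transcripts (GENCODE M21) were compared in windows of the read length. Of the 1999 windows of 37 bases in the Acta2 transcript, 0 were found in Acta1 and 1.0% in any other gene, all counted as exact matches. The log2 ratio of Acta2 to Acta1 was -7.82 ± 0.30 (SD, n = 3) across the mAktDKO mice, against -8.06 ± 0.16 (SD, n = 3) across control mice (exact permutation test, two-sided p = 0.4, adjusted p = 0.48 over 6 ratios). That difference of 0.24 was 0.064 without mAktDKO mouse 1 and 0.16 without control mouse 2. The log2 ratio of Rgs5 to Acta2, a pericyte gene against a smooth muscle gene, was 1.75 ± 0.32 (SD, n = 3) and 1.48 ± 0.18 (SD, n = 3) (exact permutation test, two-sided p = 0.3, adjusted p = 0.45 over 6 ratios). That difference of 0.27 was 0.44 without mAktDKO mouse 1, 0.13 without mAktDKO mouse 2 and 0.23 without control mouse 2.

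**Figure D2:**
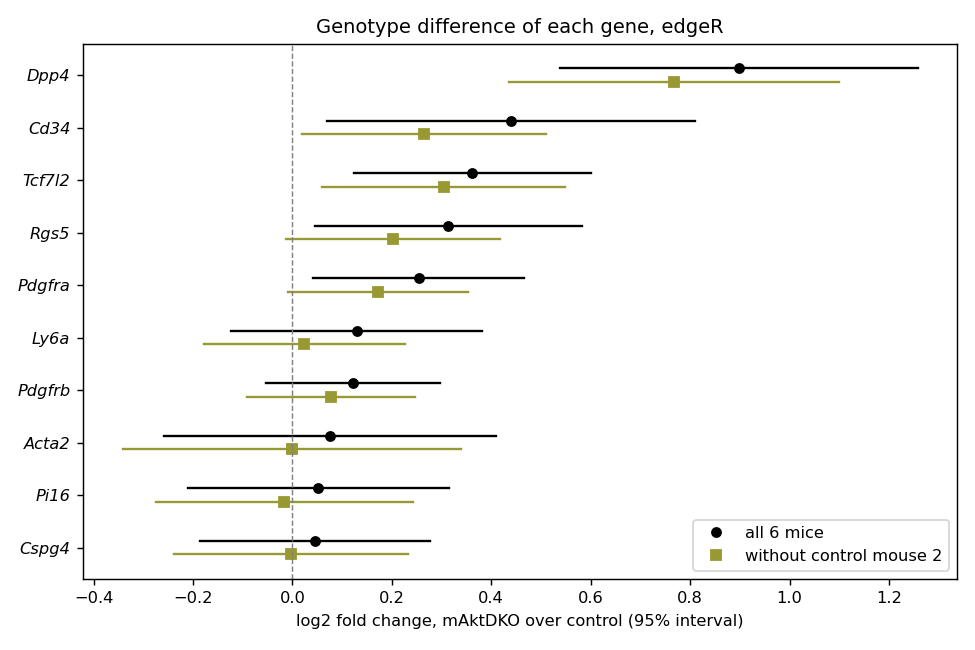
Log2 fold change of mAktDKO over control mice (horizontal axis) from edgeR with 95% intervals, for all 6 mice (black circles) and without control mouse 2 (olive squares). The interval of Dpp4 runs from 0.54 to 1.26 with all mice, those of Dpp4, Cd34 and Tcf7l2 are above 0 in both fits, and every estimate is smaller without control mouse 2.

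Among the mice of 1 group, the 10 genes did not all vary together. In control mouse 2 the deviation from the mean of a gene over the 6 mice was between -0.12 for Cspg4 and -0.73 for Dpp4 on the log2 scale. Control mouse 3 was above the mean for Cd34, Ly6a, Pi16 and Rgs5 and below it for the other genes. Among the mAktDKO mice, mouse 1 was the highest for Cd34, Acta2 and Cspg4, mouse 2 for 6 genes, and mouse 3 for Tcf7l2. Mouse 3 was the lowest of its group for 6 genes.

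**Figure D3:**
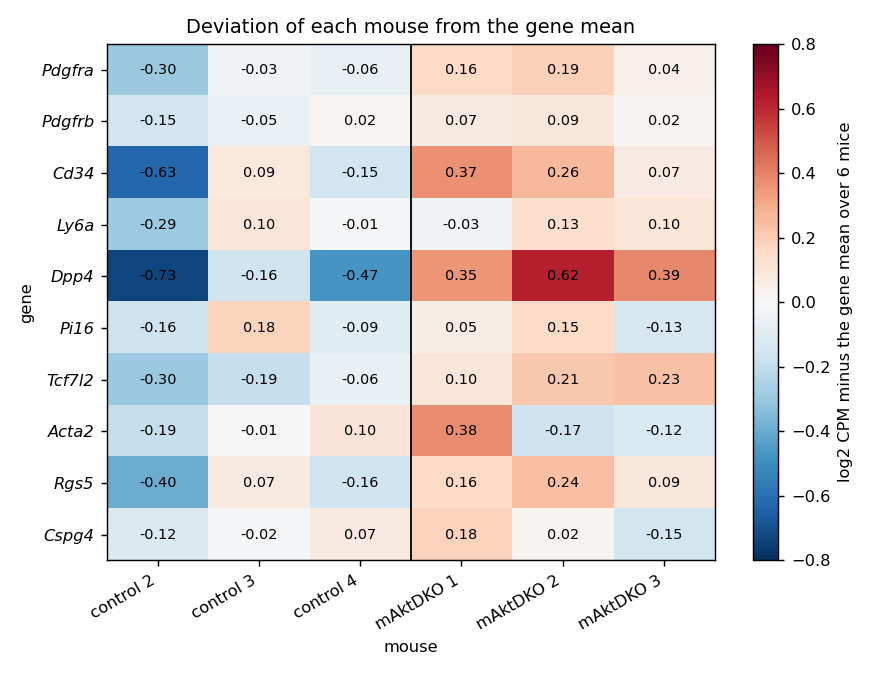
Log2 CPM of each gene (rows) in each mouse (columns) minus the gene's mean over the 6 mice, with the value printed in each cell and a color scale from -0.8 to 0.8. Control mouse 2 is below the mean in every row, and the mAktDKO columns are above it in every row of Pdgfra, Pdgfrb, Cd34, Dpp4, Tcf7l2 and Rgs5.

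Levels of different genes were compared per kilobase of the longest coding transcript. In the control mice Rgs5 was the highest, with 58.1 ± 9.41 CPM per kilobase (SD, n = 3), followed by Acta2 with 41.7 ± 4.20, Ly6a with 33.1 ± 4.46, Cd34 with 32.3 ± 7.75, Pdgfrb with 15.42 ± 0.91, Pdgfra with 10.4 ± 1.02, Pi16 with 8.29 ± 1.06, Cspg4 with 5.71 ± 0.38, Tcf7l2 with 3.45 ± 0.28 and Dpp4 with 1.38 ± 0.28 CPM per kilobase (SD, n = 3 each). Ly6a and Cd34 overlapped between mice, as did Pdgfra and Pi16, whereas the other neighbors in this order did not. In the mAktDKO mice Cd34 (43.8 ± 4.54 CPM per kilobase, SD, n = 3) stood before Ly6a (36.2 ± 2.05 CPM per kilobase, SD, n = 3) and overlapped with Acta2 (43.9 ± 9.62 CPM per kilobase, SD, n = 3). Dpp4 remained the lowest in the mAktDKO mice, with 2.58 ± 0.27 CPM per kilobase (SD, n = 3).

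Other genes of the same cell types were then examined from lists. At an adjusted p under 0.01, edgeR called 0 higher genes among all tested genes. A count of 0 higher genes called by edgeR is therefore not particular to any list. At an unadjusted p under 0.05 with edgeR (background for higher genes, 11.4%), the higher genes were 6 of the 13 fibroblast genes, 3 of the 7 adventitial, 3 of the 6 interstitial, 2 of the 9 pericyte, 0 of the 9 smooth muscle, 1 of the 4 ligand, 2 of the 4 TCF/LEF and 0 of the 2 Ly6 genes, and none of these lists had a lower gene past it. Leaving out one mouse changed these counts, to between 3 (without mAktDKO mouse 1 or 2) and 8 (without control mouse 4) for the fibroblast genes. They ran from 0 (without mAktDKO mouse 1) to 5 (without control mouse 3) for the adventitial genes and from 1 (without mAktDKO mouse 2) to 3 for the interstitial genes. The range was 2 to 3 for the pericyte genes, 1 to 2 for the TCF/LEF genes and 0 to 1 for the Ly6 genes. Over these fits the background for higher genes was 6.28% (without mAktDKO mouse 2) to 12.5% (without control mouse 4). Without mAktDKO mouse 1, 1 pericyte gene and 1 smooth muscle gene were lower (background for lower genes, 10.2%). Of 13 further genes shared by fibro-adipogenic progenitors and fibroblasts, mostly matrix proteins, 12 were above 0, with a median log2 fold change of 0.49 (0.26 without control mouse 2). edgeR called 0 of them and DESeq2 called 1 (background for higher genes, 0.936%), Dcn, which encodes the collagen-binding proteoglycan decorin. Dcn was 652 ± 58.0 CPM (SD, n = 3) against 439 ± 58.3 CPM (SD, n = 3), and its log2 fold change was 0.57 (edgeR adjusted p = 0.0539), or 0.46 without control mouse 2. Thy1, a surface protein of fibroblasts, was at 0.69 (edgeR adjusted p = 0.0966), or 0.45 without control mouse 2, and Dpt, the gene of the matrix protein dermatopontin, at 0.49 (edgeR adjusted p = 0.131). The summed level of this list was 12141 CPM in control mouse 2, 24561 and 28625 CPM in the other control mice, and 29214 to 34969 CPM in the mAktDKO mice. Most of that sum was collagen I (Col1a1 and Col1a2, named here after their values were seen). Col1a1 was 17588, 14402 and 18884 CPM across mAktDKO mice 1 to 3, against 5899, 12346 and 14935 CPM across control mice 2 to 4. Col1a2 was 10711, 9447 and 11897 CPM, against 3562, 7439.5 and 8730 CPM in the same order. The groups overlapped for Col1a1 (log2 fold change 0.62, edgeR adjusted p = 0.223), or 0.31 without control mouse 2. They did not overlap for Col1a2 (0.70, edgeR adjusted p = 0.169, background for higher genes 14.6%), or 0.40 without control mouse 2.

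The 7 genes of the adventitial or progenitor state, which Dpp4 and Pi16 also mark, were all above 0, with a median of 0.29 (0.21 without control mouse 2), and 0 were called by edgeR or DESeq2. Mfap5, a microfibril protein, was at 0.51 (edgeR adjusted p = 0.127), Sema3c at 0.37 (adjusted p = 0.147) and Pcsk6 at 0.22 (adjusted p = 0.187, all from edgeR). Without control mouse 2, Mfap5 was at 0.31 and Sema3c at 0.21. The 6 genes of the interstitial or adipogenic state were also all above 0, with a median of 0.28 (0.25 without control mouse 2). edgeR called 0 of them and DESeq2 called 1 (background for higher genes, 0.936%), Lpl, the gene of lipoprotein lipase, which myofibers and adipocytes express as well. Lpl was 921 ± 67.1 CPM (SD, n = 3) against 631 ± 84.2 CPM (SD, n = 3), and its log2 fold change was 0.55 (edgeR adjusted p = 0.054), or 0.65 without control mouse 2. Mme was at 0.58 (edgeR adjusted p = 0.122) and Cxcl14, a chemokine, at 0.27 (edgeR adjusted p = 0.146).

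Of 9 further pericyte genes, 6 were above and 3 below 0, with a median of 0.12 (0.094 without control mouse 2, 0.070 without control mouse 4 and 0.26 with library totals) and 0 calls by edgeR or DESeq2. Anpep, a peptidase, was at 0.45 (edgeR adjusted p = 0.104), Steap4, a metalloreductase, at 0.42 (edgeR adjusted p = 0.104) and Higd1b at -0.64 (edgeR adjusted p = 0.248). Of 9 smooth muscle genes, 3 were above and 6 below 0, with a median of -0.074 (-0.035 without control mouse 2) and 0 calls by either tool. That median was -0.24 without mAktDKO mouse 1, 0.023 without mAktDKO mouse 2, 0.0095 without mAktDKO mouse 3, 0.0071 without control mouse 4 and 0.064 with library totals, so its sign was not stable. Mylk, the gene of myosin light chain kinase, was at 0.16 (edgeR adjusted p = 0.281), Synpo2 at -0.15 (adjusted p = 0.329) and Smtn at -0.13 (adjusted p = 0.363, all from edgeR).

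**Figure D4:**
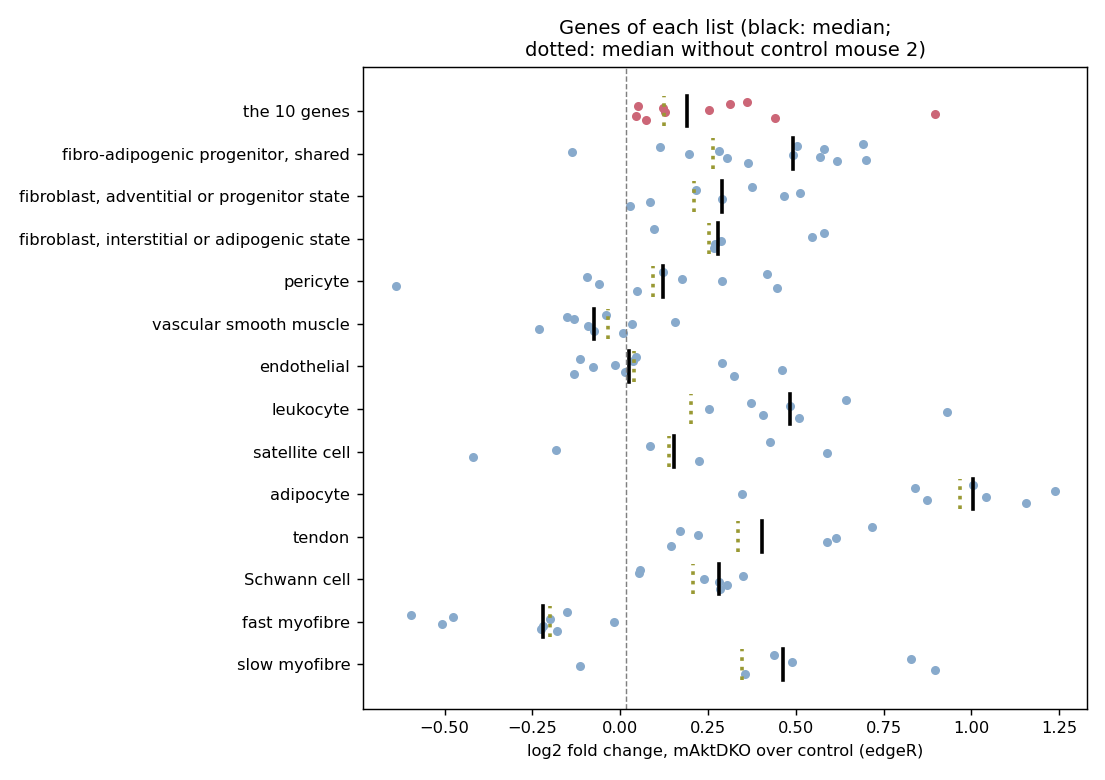
Log2 fold change of mAktDKO over control mice (horizontal axis, edgeR) of the tested genes of each list (points), with the list's median in black, its median without control mouse 2 as a dotted olive line and the median of all tested genes (0.017) as a dashed grey line. The 10 genes (red) lie between 0.045 and 0.90, smooth muscle genes have a median of -0.074 (0.064 with library totals) and fast myofiber genes one of -0.22 (-0.083 with library totals).

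Markers of other cell types of the muscle differed between the groups to different extents, and their part in the differences above was not tested. Counts at an unadjusted p under 0.05 with edgeR had a background of 11.4% for higher and 13.1% for lower genes. Higher were 2 of 10 endothelial, 3 of 7 leukocyte, 6 of 7 adipocyte and 3 of 6 tendon genes. So were 2 of 7 Schwann cell, 1 of 6 satellite cell and 2 of 6 slow myofiber genes. Lower were 1 satellite cell gene and 3 of 9 fast myofiber genes. These counts changed when one mouse was left out. Without control mouse 2 they were 0 for endothelial, Schwann cell, satellite cell and slow myofiber genes, 2 for adipocyte, 2 for leukocyte and 3 for tendon genes. In that fit 1 satellite cell and 4 fast myofiber genes were lower (background, 9.05% for higher and 10.2% for lower genes). With each mouse left out in turn, higher genes ranged from 1 to 7 for adipocyte, 1 to 6 for leukocyte, 0 to 5 for slow myofiber, 0 to 3 for endothelial, 0 to 3 for Schwann cell, 0 to 2 for satellite cell and 2 to 4 for tendon genes. Lower genes ranged from 3 to 5 for fast myofiber and 1 to 2 for satellite cell genes. The background moved between 6.28% and 12.5% for higher genes and between 8.08% and 13.3% for lower genes in those fits. Of 10 endothelial genes, which share vessels with the mural cells, 6 were above 0, with a median of 0.025 (0.040 without control mouse 2), 0 calls by edgeR or DESeq2 and a summed level of 607 to 709 CPM in the mAktDKO mice and 535 to 669 CPM in the control mice. That median was -0.044, 0.084 and 0.095 without mAktDKO mouse 1, 2 and 3, 0.049 and -0.031 without control mouse 3 and 4, and 0.16 with library totals. Cdh5 (0.32, adjusted p = 0.173), Emcn (0.46, adjusted p = 0.174) and Pecam1 (0.29, adjusted p = 0.228, all from edgeR) had the smallest p of that list, and were at 0.25, 0.29 and 0.18 without control mouse 2. Of 9 leukocyte genes, 7 passed the filter on low counts and Cd3e of T cells was at or near 0 counts in every mouse, and the 7 were all above 0, with a median of 0.48 (0.20 without control mouse 2) and sums of 92.4 to 117 CPM against 56.7 to 99.3 CPM. Ptprc, the common leukocyte antigen, was at 0.64 (adjusted p = 0.125), Cd68 at 0.93 (adjusted p = 0.141) and Adgre1 at 0.51 (adjusted p = 0.149, all from edgeR), or 0.42, 0.63 and 0.31 without control mouse 2. All 7 adipocyte genes were above 0, with a median of 1.00 (0.97 without control mouse 2 and 0.63 without mAktDKO mouse 2), 0 calls by edgeR or DESeq2 and sums of 185 to 331 CPM against 156 to 215 CPM. The groups of 1 of these 7 genes did not overlap (background for higher genes, 14.6%), and mAktDKO mouse 3, with 5.69 CPM of Adipoq, lay within the control range of 4.60 to 9.53 CPM. Fabp4 was at 0.35 (adjusted p = 0.0941), Adipoq at 1.16 (adjusted p = 0.154) and Retn at 1.00 (adjusted p = 0.166, all from edgeR). All 6 tendon genes were above 0, with a median of 0.40 (0.33 without control mouse 2) and sums of 1233 to 1775 CPM against 943 to 1274 CPM, and DESeq2 called 2 of them (background for higher genes, 0.936%), Tnmd (log2 fold change 0.72 and edgeR adjusted p = 0.0772) and Fmod (0.59, edgeR adjusted p = 0.0909), which DESeq2 did not call without control mouse 2 (adjusted p = 0.287). Mkx was at 0.62 (edgeR adjusted p = 0.13).

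All 7 Schwann cell genes were above 0, with a median of 0.28 (0.21 without control mouse 2), 0 calls by edgeR or DESeq2 and sums of 431 to 567 CPM against 376 to 452 CPM, led by Pmp22 at 0.35 (edgeR adjusted p = 0.169), or 0.20 without control mouse 2. Of 6 satellite cell genes, 4 were above 0, with a median of 0.15 (0.14 without control mouse 2, 0.25 without mAktDKO mouse 1 and 0.081 without mAktDKO mouse 2) and sums of 52.5 to 61.2 CPM against 54.7 to 67.8 CPM. Cdh15 (-0.42, edgeR adjusted p = 0.122) and Myf5 (0.59, edgeR adjusted p = 0.179) lay on opposite sides of 0, at -0.25 and 0.41 without control mouse 2. The 9 fast myofiber genes were all below 0, with a median of -0.22 (-0.20 without control mouse 2 and -0.083 with library totals), 0 calls by edgeR and 3 by DESeq2 (background for lower genes, 2.61%), and their sums were 127320 to 141470 CPM against 145670 to 156260 CPM. Myh1 was at -0.51 (adjusted p = 0.0539), Tnni2 at -0.59 (adjusted p = 0.0557) and Tnnc2 at -0.48 (adjusted p = 0.0608, all from edgeR). Of the 6 slow myofiber genes 5 were above 0, with a median of 0.46 (0.35 without control mouse 2, 0.28 without mAktDKO mouse 2 and 0.73 without control mouse 3), sums of 644 to 1257 CPM against 569 to 829 CPM and 0 calls by either tool, and Tnni1 had the smallest p (0.83, edgeR adjusted p = 0.141).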

How the data were processed

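EDL muscles of 3 control floxed and 3 mAktDKO mice were sequenced from rRNA-depleted, strand-specific libraries and paired-end, 37 bp reads. Per the methods and labels, the authors mapped the reads to mm10 with STAR and deposited estimated counts (expected counts) per gene from RSEM 1.3.1, not scaled between mice. The STAR version is 2.6.1b in the submitters' processing notes, whereas the study's methods name another version. RSEM divides reads that fit several genes. The gene annotation used for counting is not given in the sources used here.

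The estimated counts were rounded and analysed in R 4.3.3 with edgeR 4.0.16 (filterByExpr with minimum count 10, TMM, quasi-likelihood test). Benjamini-Hochberg adjustment ran over all 12892 tested genes, and a gene was called at an adjusted p under 0.01. Standard errors were taken as the absolute log2 fold change over the root of F, and 95% intervals use the test's degrees of freedom. Single values were compared by exact permutation. Lists were described by counts and medians only. The study used DESeq2 with this limit and a further one on q, which was not applied. DESeq2 1.42.0 was an alternative here, with its default filter (9616 genes with an adjusted p), as were other scalings, no filter and leaving out each mouse. Listed genes without an adjusted p from DESeq2, such as Pdgfc, Higd1b, Cnn1, Lep and Sox10, were counted as not called by it. The steps were tested on simulated data. Totals were 13738795 to 15445523 counts, where 3 counts correspond to 0.18 to 0.23 CPM, and no library was a copy of another (chi-square per degree of freedom between 7.64 and 69.9). Control columns are numbered 2 to 4 and labelled control samples 1 to 3, so each column stands for 1 mouse of the group. The p-values measure the spread between these libraries.

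The named genes are the 10 markers, Akt1, Akt2, Acta1 and at most the 3 genes with the smallest p in a list. Others are named only as members of a list, as untested, or as chosen after their values were seen. The markers and lists were chosen with earlier results of these data known. Promoter windows are from RefSeq (GRCm38.p6), gene spans and transcripts from GENCODE M21.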

Additional observations from a re-analysis of the deposited data

How the results depend on the processing

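No paired analysis was possible because numbers 2 to 4 of the control columns differ from numbers 1 to 3 of the labelled samples, so the planned fit with a block was not run.

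The number of the 10 genes called was 0 with edgeR under each scaling tried, without the filter and without any one mouse (0 to 0). Over all tested genes, the calls in either direction were 3 of 12892 under each scaling and 32 of 17360 without the filter. They were 0 without mAktDKO mouse 1, 2 or 3, and 8, 3 and 4 without control mouse 2, 3 and 4. The number of the 10 genes called was 1 (Dpp4) with DESeq2's Wald test, with an adjusted p under 0.05, and with an adjusted p under 0.05 without control mouse 2. The groups of 5 genes did not overlap, as against 7 with library totals (background for higher genes, 26.5%) and 5 to 6 without one mouse (background, 17 to 21.9%). Library totals moved the median of all tested genes (log2 fold change) from 0.017 to 0.16 and that of the 10 genes from 0.19 to 0.33, which is 0.17 above all genes in both. Direction was not stable for 3 genes: leaving out one mouse gave log2 fold changes of -0.016 to 0.16 for Pi16, -0.12 to 0.17 for Acta2 and -0.041 to 0.11 for Cspg4, and without control mouse 2 DESeq2 gave -0.023, -0.0080 and -0.010. The other 7 genes stayed above 0 in every alternative, Dpp4 between 0.76 and 1.06. The log2 ratio of Pi16 plus Dpp4 to Pdgfra differed by -0.070 to 0.052 without one mouse. Of 126 comparisons of a list median with an alternative, 119 moved by less than 1 SD between mice. The others were, with library totals, pericyte (0.26), PDGF ligand (0.28 from 0.14), TCF/LEF (0.29 from 0.15) and fast myofiber genes (-0.083), the ligands without mAktDKO mouse 1 (0.22) or control mouse 2 (0.23), and TCF/LEF without control mouse 4 (0.29). With 3 mice against 3, exact permutation cannot go below 0.1.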

Other observations

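Hbb-bs and Hbb-bt, beta-globin genes of red blood cells, gave different pictures although they lie in 1 cluster and their sequences are close enough that reads may be divided between them. Hbb-bs was listed at 0 in the 3 control mice and at 23.5, 9.23 and 10.01 CPM in mAktDKO mice 1 to 3, with an adjusted p of 0.018 from edgeR and of 1.19e-10 from DESeq2, its 1 call in this list with all mice. Hbb-bt, chosen after its values were seen, was 23.1, 16.2 and 9.74 CPM across mAktDKO mice 1 to 3, against 13.2, 13.1 and 8.997 CPM across control mice 2 to 4, with 0.47 as log2 fold change (edgeR adjusted p = 0.318). Hba-a2, an alpha-globin gene, was at 1.07 (edgeR adjusted p = 0.137), or 1.72 without control mouse 2 (edgeR adjusted p = 0.0133). For this gene DESeq2 gave an adjusted p of 0.226 with all mice and of 5.8e-05 without control mouse 2. Its near-copy Hba-a1, chosen after its values were seen, was at 0.20 (edgeR adjusted p = 0.845), or -0.0024 without control mouse 2. In control mouse 3 Hba-a1 was 117 CPM and Hba-a2 25.9 CPM, whereas in mAktDKO mouse 3 they were 23.7 and 103 CPM, so the division of counts between the twin genes differed between mice. Beta-globin haplotypes differ between mouse strains, and which haplotype each mouse carried was not tested. All 5 red blood cell genes listed were above 0. Their median log2 fold change was 0.47 (0.56 without control mouse 2 and 0.18 without mAktDKO mouse 1). Their summed level was 150 to 320 CPM in the mAktDKO mice and 114 to 168 CPM in the control mice. The source of these differences was not tested.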
